A study of Homo sapiens with 3 samples.

Results

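Messenger RNA of 10 genes that store, carry, export and sense iron was compared in Hep-G2, an established human hepatoma line, that carried short hairpin RNAs (shRNAs) against FTO, an RNA demethylase, or a control hairpin. The 10 genes are FTL, FTH1, TF, TFRC, TFR2, SLC40A1, HAMP, CP, ACO1 and IREB2. They were chosen by symbol, as rows of a table of 21572 genes, and all 10 were among the 11069 genes compared, those averaging 1 FPKM or more over the libraries (FPKM counts fragments relative to transcript length and library depth). One library came from cells with hairpin TRCN0000246247 (sh#7), 1 from cells with hairpin TRCN0000255402 (sh#2) and 1 from cells with the control hairpin SHC002. All cells were Hep-G2 at passage 21, grown in DMEM with serum, and the labels do not say whether a line was a clone or a pool. The series describes FTO as reduced more by sh#7 than by sh#2. With 1 library in each group, nothing here measures the spread between cultures, and no difference below has a replicate check.

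Hepatocytes take up iron bound to transferrin, keep the excess inside ferritin shells built of light and heavy chains, and release iron through ferroportin. They also set iron supply for the whole body by secreting hepcidin, a peptide that binds ferroportin and has it degraded. Inside the cell, iron regulatory proteins bind stem-loops called iron-responsive elements: in the 5′ UTR of ferritin and ferroportin mRNA they block translation, and in the 3′ UTR of transferrin receptor mRNA they protect the message from decay. Ferritin control of this kind acts on translation, so an mRNA level does not report ferritin protein.

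The element was sought in UTRs of the members because it is the sequence through which iron reaches several of these messages. The search took a C, 5 bases, the loop CAGTGN and 5 bases able to pair with the first 5, G-T pairs allowed, on the sense strand of 1 principal GENCODE 29 transcript per gene. It was run over the genes of the table, and matches are given for the 7 members that also have an entry in the RefSeq promoter table on GRCh38.p14. Results for FTH1, TFR2 and CP are not given, so their absence below says nothing about whether they carry the element. FTL and SLC40A1 each had 1 match in the 5′ UTR, where 0.0928% of 16156 genes of the table had one. TFRC had 4 matches in the 3′ UTR, where 0.493% of 16629 genes had at least 1. ACO1, HAMP and IREB2 had 0 matches. TF had 1 match in its 3′ UTR, which starts at base 16635 of an unusually long transcript model and is given as a match of letters only. The FTL match lies at chr19:48965335-48965364 (plus strand, GRCh38), the SLC40A1 match at chr2:189580660-189580689 (minus strand) and the first and last TFRC matches at chr3:196050978-196051007 and chr3:196050462-196050491 (minus strand). Each is shown 5′ to 3′ in 30 bases with the loop in capitals, so that the shared loop and the differing stems can be seen.
FTL 5′ UTR: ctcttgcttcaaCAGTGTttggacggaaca
SLC40A1 5′ UTR: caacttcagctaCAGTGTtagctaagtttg
TFRC 3′ UTR, first match: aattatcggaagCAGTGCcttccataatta
TFRC 3′ UTR, last match: aattatcgggaaCAGTGTttcccataattt

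The targeted gene followed the labels, with FTO at 2.55 FPKM in sh#7, 5.29 FPKM in sh#2 and 9.02 FPKM in control, or 28.2% of control in sh#7 and 58.6% in sh#2. Estimated depths were 41.8 M (mega) fragments in sh#7, 43.7 M in sh#2 and 42.1 M in control, and the iron genes drew from 641 estimated fragments (TFR2 in sh#7) to 306033 (TF in control). Differences are given as log2(FPKM + 1) of the first library minus that of the second, and a gene is called past 2-fold where this difference reaches 1 in size. That is a description of size, not a test. All compared genes had medians of 0.16 (sh#7 minus control), 0.10 (sh#2 minus control) and 0.05 (sh#7 minus sh#2), so a difference near those values is near the middle of all genes. The summed share of the 100 most abundant genes was 28.98% in sh#7, 31.3% in sh#2 and 34.7% in control, and FPKM is relative to the total. In sh#7 against control 48.6% of the genes past 2-fold were higher, against 33.5% after median-of-ratios scaling, and in sh#2 against control 41.2% were higher, against 30.7% after that scaling.

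In sh#7 the ceruloplasmin gene CP and the second transferrin receptor gene TFR2 were past 2-fold lower than control and the hepcidin gene HAMP was past 2-fold higher. In sh#2 only CP of the 10 was past 2-fold. The transferrin gene TF was lower in both lines without reaching 2-fold, while the ferritin chains, ferroportin, the main transferrin receptor and the iron regulatory proteins differed less. In counts, 2 of 10 genes were past 2-fold lower in sh#7 against 2.48% of all compared genes, and 1 of 10 was past 2-fold higher against 2.35%. In sh#2 the counts were 1 of 10 lower against 0.723% of all compared genes and 0 of 10 higher against 0.506%. Between the lines, 2 of 10 (CP and TFR2) were past 2-fold lower in sh#7 than in sh#2 against 1.52% of all compared genes, and 0 of 10 were higher against 1.45%. The median of the 10 was 0.086 in sh#7 and -0.048 in sh#2 against control, below the medians of all genes by 0.071 and 0.15, and the span of the list came from a few members. Both lines were set against the same control library.

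TF, CP, HAMP and TFR2 are all products of hepatocytes, and hepatocyte markers also differed between these libraries. The 6 markers (ALB, APOA1, APOB, SERPINA1, TTR and APOH) were all expressed in every library and summed to 5276 FPKM in sh#7, 11627 FPKM in sh#2 and 11413 FPKM in control. Of the 6 markers, 3 were past 2-fold lower in sh#7, against 2.48% of all compared genes, and 1 in sh#2, against 0.723%. ALB was at 1947 FPKM in sh#7, 5501 in sh#2 and 5468 in control. TTR, past 2-fold lower in both lines, was at 3.43 FPKM in sh#7, 26.6 in sh#2 and 61.1 in control. APOH was at 1077 FPKM in sh#7, 1839 in sh#2 and 1494 in control, so the markers did not move together. Their part in the iron gene differences was not tested, and in bulk RNA fewer cells of a kind cannot be told apart from less RNA per cell. Markers of other cells were at or near 0 for the most part: erythroid markers summed to 1.57 FPKM in sh#7, 2.41 in sh#2 and 2.51 in control with HBB and HBA2 listed at 0, and endothelial markers to 0.0567 FPKM in sh#7, 0.196 in sh#2 and 0.0852 in control with KDR at 0. Among 6 macrophage and leukocyte markers PTPRC was listed at 0 and the sums of 321 FPKM in sh#7, 1353 in sh#2 and 3256 in control came from LYZ, at 297 FPKM in sh#7, 1321 in sh#2 and 3216 in control, with CD68 at 23.3 FPKM in sh#7, 30.8 in sh#2 and 39.3 in control. Fibroblast and stellate markers summed to 52.7 FPKM in sh#7, 35.4 in sh#2 and 43.9 in control, nearly all ACTA2. In sh#7 PDGFRB went the other way from that sum, past 2-fold lower than control, at 0.616 FPKM in sh#7, 1.69 in sh#2 and 3.76 in control. COL1A1 was low, at 0.578 FPKM in sh#7, 0.102 in sh#2 and 0.0149 in control, and COL1A2, COL3A1, DCN and LUM were listed at 0.

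**Figure D1:**
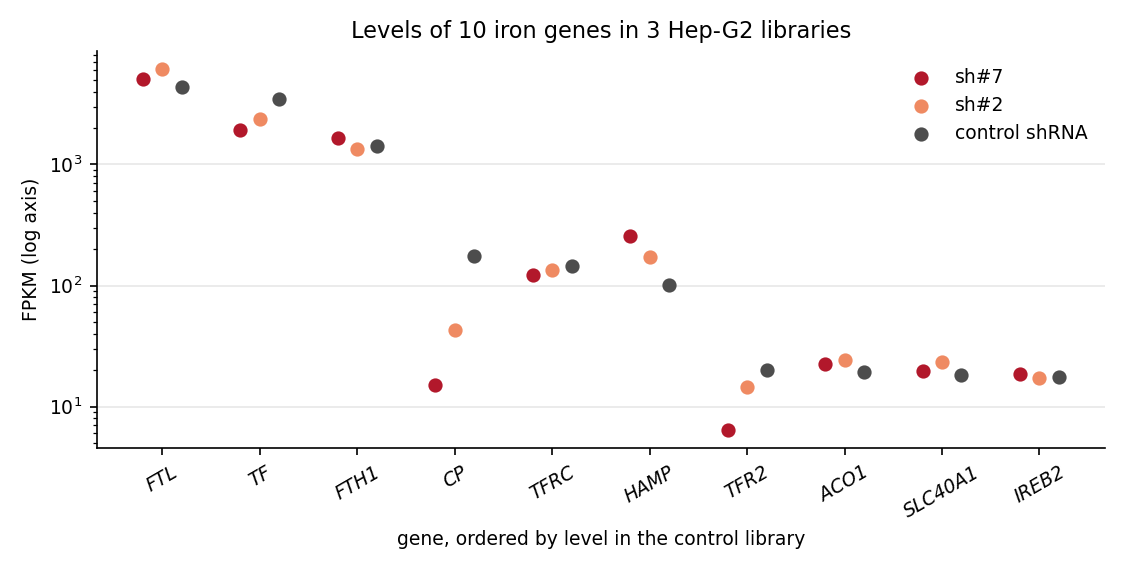
FPKM of each of the 10 iron genes (log axis) in sh#7, sh#2 and control, 1 point per library, with genes ordered by their level in control. CP spans 14.9 to 175 FPKM and HAMP 102 to 257 FPKM in opposite order, while IREB2 stays between 17.3 and 18.6 FPKM.

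Ferritin messages were among the most abundant of the cell in all 3 libraries. FTL, which encodes the light chain that aids mineral formation in the shell, was at 5093 FPKM in sh#7, 6171 FPKM in sh#2 and 4404 FPKM in control. Its rank by FPKM among all genes was 2 in sh#7, 1 in sh#2 and 7 in control. FTL was thus highest in sh#2, where it reached 140% of control (95% interval 139 to 141), and was at 116% in sh#7 (115 to 117). These and all later intervals are exact (Clopper-Pearson), rest on fragment numbers estimated from coding length, and cover counting error only. Relative to the median of all genes, FTL lay 0.05 above it in sh#7 and 0.38 above it in sh#2 on the log2 scale, and 559 of 11069 compared genes had a greater difference in sh#2.

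FTH1, which encodes the heavy chain with the ferroxidase site, was at 1645 FPKM in sh#7, 1344 FPKM in sh#2 and 1413 FPKM in control. Against control it differed by 0.22 in sh#7 and by -0.07 in sh#2 on the log2 scale, so the lines lay on opposite sides of control by small amounts. The FTH1 difference in sh#7 was 0.032 after median-of-ratios and 0.10 after upper-quartile scaling. The ratio of light to heavy chain FPKM was 3.10 in sh#7 (3.06 to 3.13), 4.59 in sh#2 (4.54 to 4.65) and 3.12 in control (3.08 to 3.16). The intervals of sh#7 and control overlap, and sh#2 stood above both. Both chains summed to 6739 FPKM in sh#7, 7514 FPKM in sh#2 and 5817 FPKM in control, or 1.27% of all FPKM in sh#7, 1.35% in sh#2 and 1.03% in control. Ferritin genes have many processed pseudogenes that can draw reads: the table lists FTH1P3, at 0.285 FPKM in sh#7, 0.422 in sh#2 and 0.342 in control, and FTLP10, listed at 0, and how reads were divided is uncertain.

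**Figure D2:**
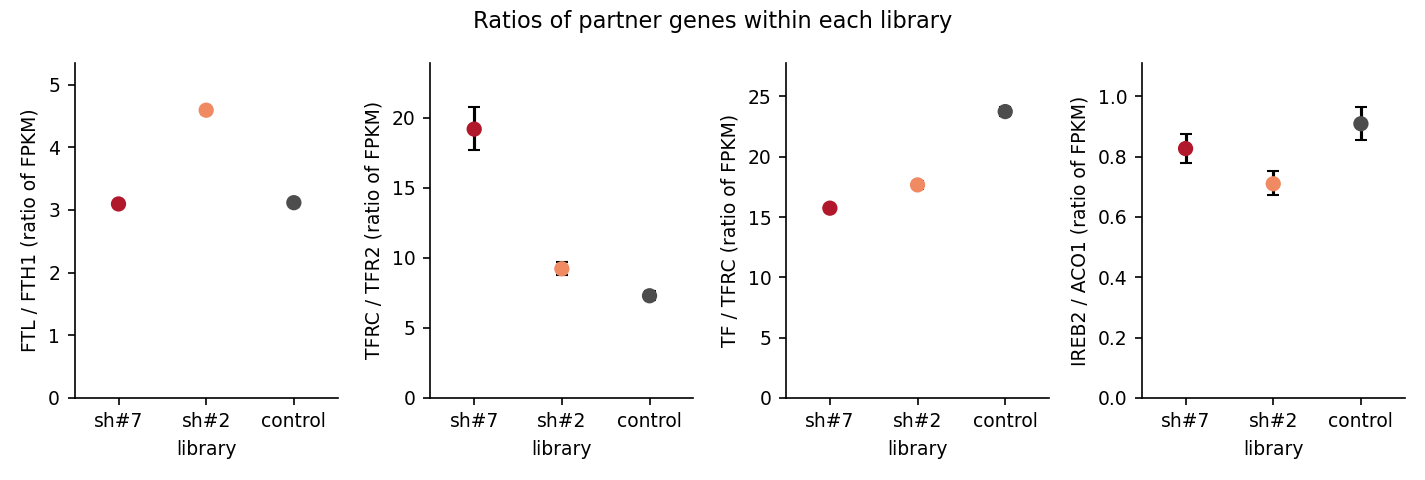
Ratio of FPKM of 2 partner genes within each library (sh#7, sh#2, control, left to right) for FTL over FTH1, TFRC over TFR2, TF over TFRC and IREB2 over ACO1; bars are 95% counting intervals and are hidden where smaller than the point. The ferritin ratio stands apart in sh#2 at 4.59, and the receptor ratio in sh#7 at 19.2.

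TF encodes transferrin, the plasma protein that carries ferric iron, and is made chiefly by hepatocytes. It was at 1926 FPKM in sh#7, 2379 FPKM in sh#2 and 3471 FPKM in control, the second most abundant of the 10 genes in each library. Its level was 55.5% of control in sh#7 (55.1 to 55.8) and 68.5% in sh#2 (68.1 to 68.9). The log2 differences from control were -0.85 (sh#7) and -0.55 (sh#2), and only 372 compared genes in sh#7 and 344 in sh#2 lay lower. Under median-of-ratios scaling the sh#7 difference was -1.04, past 2-fold.

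The receptors parted. TFRC, the transferrin receptor of nearly all cells, was at 122 FPKM in sh#7, 135 FPKM in sh#2 and 146 FPKM in control. Its log2 differences from control were -0.25 (sh#7) and -0.12 (sh#2), and 1670 compared genes in sh#7 and 2095 in sh#2 lay lower. TFR2, a receptor found mainly in liver and in red cell precursors that takes part in sensing transferrin-bound iron and is needed for normal hepcidin expression, was at 6.37 FPKM in sh#7, 14.6 FPKM in sh#2 and 20.04 FPKM in control. It was at 31.8% of control in sh#7 (29.1 to 34.8) and at 72.9% in sh#2 (68.1 to 77.9), with log2 differences of -1.51 (sh#7) and -0.43 (sh#2), and only 109 compared genes in sh#7 lay lower. TFR2 was also past 2-fold lower in sh#7 than in sh#2, at 43.7% (39.8 to 47.9). The ratio of TFRC to TFR2 was 19.2 in sh#7 (17.7 to 20.8), 9.22 in sh#2 (8.75 to 9.73) and 7.29 in control (6.96 to 7.65). That of TF to TFRC was 15.7 in sh#7, 17.7 in sh#2 and 23.7 in control.

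SLC40A1, which encodes ferroportin, the one known cellular exporter of iron, was at 19.8 FPKM in sh#7, 23.4 FPKM in sh#2 and 18.4 FPKM in control. The sh#7 level was 107% of control with an interval that spans no difference (99.7 to 116), and its log2 difference of 0.099 was -0.079 after median-of-ratios and -0.011 after upper-quartile scaling. The sh#2 level was 127% of control (119 to 137).

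CP encodes ceruloplasmin, a copper-bearing ferroxidase of plasma that oxidises iron as it leaves cells so that transferrin can bind it. It had the widest span of the 10 as a fold between libraries, though not in FPKM, at 14.9 FPKM in sh#7, 43.1 FPKM in sh#2 and 175 FPKM in control. Its level was 8.53% of control in sh#7 (8.14 to 8.93) and 24.6% in sh#2 (23.9 to 25.3). The log2 differences were -3.47 (sh#7) and -2.00 (sh#2), and only 14 compared genes in sh#7 and 12 in sh#2 lay lower. Compared directly, CP in sh#7 was at 34.6% of sh#2 (32.9 to 36.4). By level CP was in place 9 of the 10 genes in sh#7, 6 in sh#2 and 4 in control.

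Copper is handled by other genes, not all of which serve ceruloplasmin, and 0 of 10 copper supply genes passed 2-fold in either line. With 2.35% of all compared genes past 2-fold higher and 2.48% lower in sh#7, and 0.506% and 0.723% in sh#2, a count of 0 is near the share of all genes and says nothing particular about these. ATP7B, a copper transporter of this list chosen after its values were seen, was at 8.38 FPKM in sh#7, 15.1 in sh#2 and 12.5 in control. That was 67.1% of control in sh#7 (62.9 to 71.6). In sh#7, 4 of the 10 copper supply genes lay above the median of all genes and 6 below it, and in sh#2, 8 and 2. Their median difference was 0.10 in sh#7 and 0.26 in sh#2. The highest of them were COX17, a copper chaperone of mitochondria, at 76.3 FPKM in sh#7, 83.3 FPKM in sh#2 and 66.3 FPKM in control, CCS, the chaperone of superoxide dismutase, at 49.4 FPKM in sh#7, 56.1 in sh#2 and 51.8 in control, and ATOX1, the chaperone that delivers copper to the secretory pathway, at 51.9 FPKM in sh#7, 45.1 in sh#2 and 41.4 in control.

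**Figure D3:**
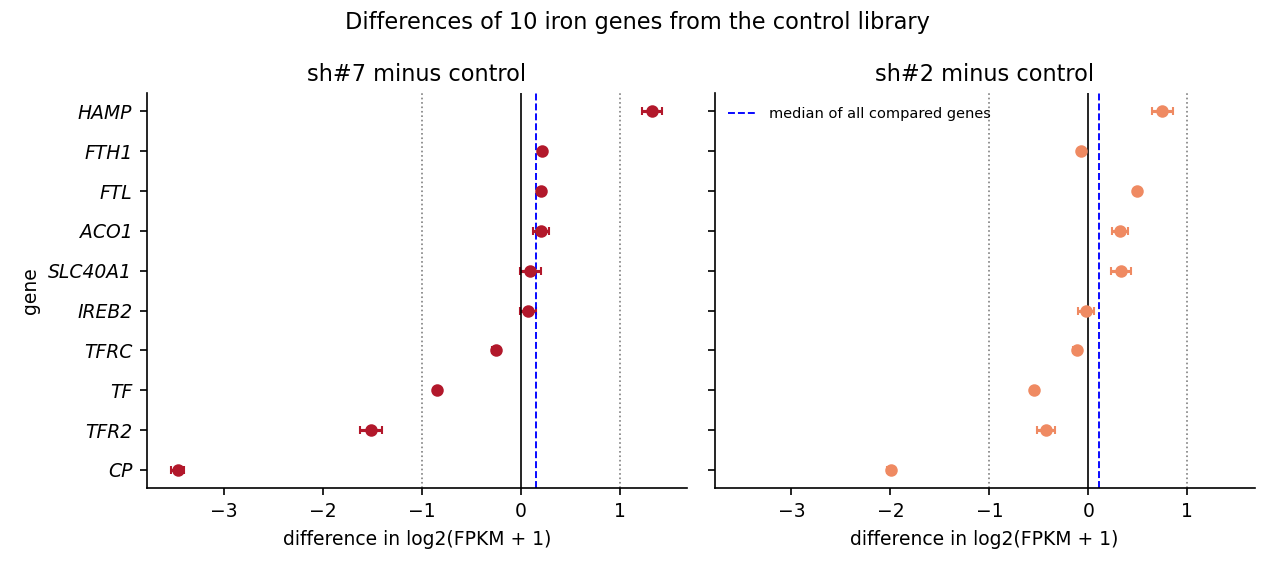
Difference in log2(FPKM + 1) of each of the 10 iron genes from control, for sh#7 (left) and sh#2 (right); bars are 95% counting intervals, dotted lines mark 2-fold and the dashed line the median of all compared genes. CP and TFR2 lie past the lower line and HAMP past the upper line in sh#7, and in sh#2 CP alone is past a line.

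HAMP encodes hepcidin and ran the other way from CP and TFR2. It was at 257 FPKM in sh#7, 171 FPKM in sh#2 and 102 FPKM in control, or 253% of control in sh#7 (236 to 272) and 169% in sh#2 (156 to 182). The log2 differences were 1.33 (sh#7) and 0.75 (sh#2), and 122 compared genes in sh#7 and 131 in sh#2 lay higher. Its rank by level among all genes was 321 in sh#7, 524 in sh#2 and 904 in control. The level was thus highest in sh#7 and lowest in control.

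Hepcidin transcription is known to be driven by bone morphogenetic protein (BMP) signals through SMAD proteins and by interleukin 6 through STAT3. A list of 22 genes linked to hepcidin control was described beside HAMP, and 19 of them were compared. The list pools genes that raise hepcidin, genes that restrain it and targets of the pathway, so its median gives no direction for hepcidin. In sh#7, 4 were past 2-fold higher (SMAD7, SMAD6, ATOH8 and FURIN) and 1 was past 2-fold lower (CREB3L3), against 2.35% higher and 2.48% lower among all compared genes. This split depends on scaling and on the value added to FPKM. There were 3 higher and 3 lower after median-of-ratios scaling, beside 192 higher and 381 lower of the 11069 compared genes. After upper-quartile scaling there were 3 and 2, beside 214 and 334 of all compared genes. Adding 0.1 in place of 1 before taking log2 gave 6 higher and 2 lower, beside 394 and 364 of all compared genes. With 1 added and no rescaling, the list median was 0.47, against 0.16 for all compared genes. Of the 19, 14 lay above the median of all genes. In sh#2, 0 were past 2-fold in either direction, against 0.506% higher and 0.723% lower among all compared genes, and the list median of 0.09 was next to the 0.10 of all compared genes.

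Among the 4 members called higher in sh#7 without rescaling and with 1 added to FPKM are SMAD7, SMAD6 and ATOH8, known targets of BMP signalling. The list was drawn up to include such targets, so their number among the calls says nothing by itself. Whether BMP signalling differed between the libraries was not tested. SMAD7, an inhibitor of the pathway that is itself induced by it, was at 36.3 FPKM in sh#7, 13.0 FPKM in sh#2 and 11.7 FPKM in control. SMAD6, a second inhibitor of this kind, was at 9.63 FPKM in sh#7, 4.56 in sh#2 and 4.26 in control, and its sh#7 difference of 1.02 was 0.86 after median-of-ratios and 0.92 after upper-quartile scaling. ATOH8, a transcription factor that is a BMP target in hepatocytes, was at 4.06 FPKM in sh#7, 0.159 FPKM in sh#2 and 0.131 FPKM in control, from about 164 estimated fragments in sh#7, 7 in sh#2 and 5 in control. ID1, the usual readout of BMP signalling, was the most abundant of the list, at 418 FPKM in sh#7, 277 FPKM in sh#2 and 259 FPKM in control, or 161% of control in sh#7 (156 to 167) and 107% in sh#2 (103 to 111). In sh#2 the differences of SMAD6 and ID1 were 0.081 and 0.096 and turned below 0 under both other scalings.

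The relation of HAMP, at 169% of control in sh#2, to the genes of this list was not tested. FURIN, a protease that cuts the hepcidin precursor and other proproteins, was at 61.6 FPKM in sh#7, 37.6 FPKM in sh#2 and 21.7 FPKM in control, or 283% of control in sh#7 and 173% in sh#2. The other members named by the rule were STAT3, at 54.9 FPKM in sh#7, 49.2 in sh#2 and 41.2 in control, GDF15, a stress-induced secreted factor, at 73.9 FPKM in sh#7, 133 in sh#2 and 137 in control (a sh#7 difference of -0.88, and of -1.07 after median-of-ratios scaling), and CREB3L3, a liver transcription factor bound to the endoplasmic reticulum, at 3.10 FPKM in sh#7, 7.30 in sh#2 and 8.94 in control.

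Upstream components of the pathway had these levels. TMPRSS6, a protease that restrains hepcidin, was at 3.28 FPKM in sh#7, 2.66 FPKM in sh#2 and 1.33 FPKM in control. HFE, the hereditary haemochromatosis gene, was at 4.14 FPKM in sh#7, 2.63 in sh#2 and 2.73 in control. The interleukin 6 receptor gene IL6R was at 20.5 FPKM in sh#7, 10.3 in sh#2 and 10.03 in control. HFE2, which encodes the BMP co-receptor hemojuvelin, and the ligand genes BMP2 and BMP6 had means below 1 FPKM and were not compared, with 0.196 FPKM for HFE2 in sh#2 as the highest of these values. ACVR1, a BMP type I receptor gene, went the other way, at 2.92 FPKM in sh#7, 6.50 FPKM in sh#2 and 6.47 FPKM in control, or 45.1% of control in sh#7 (37.7 to 53.6) with a log2 difference of -0.93. TMPRSS6, HFE, IL6R and ACVR1 were chosen after their values were seen.

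**Figure D4:**
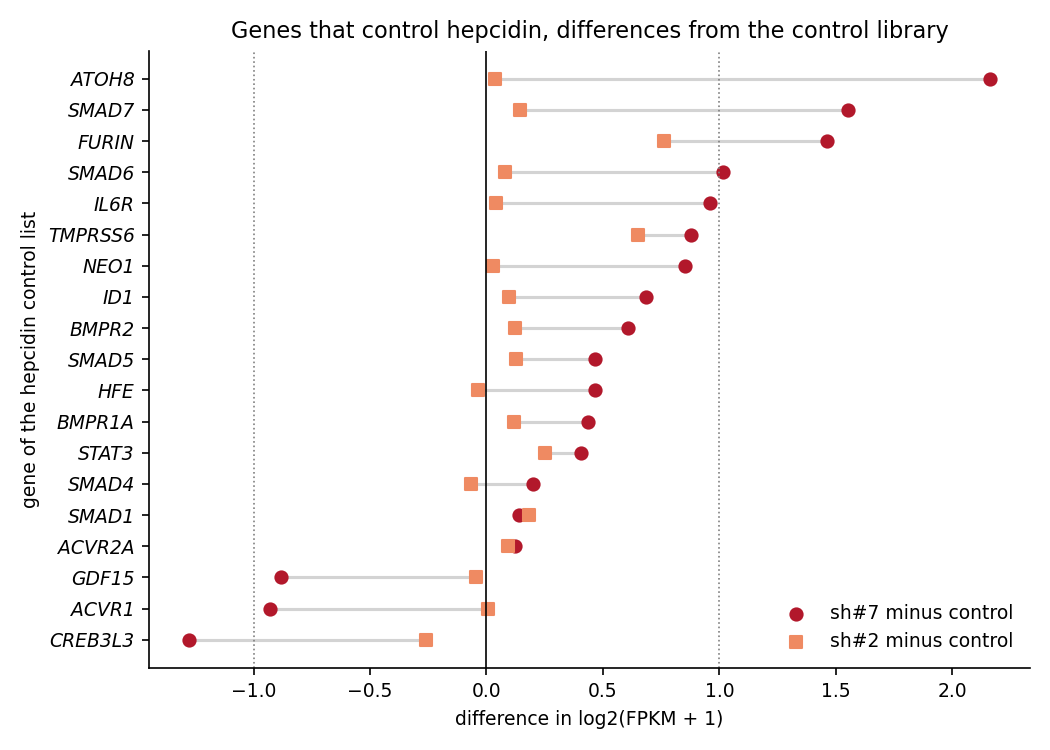
Difference in log2(FPKM + 1) from control for the 19 compared genes of the hepcidin control list, sh#7 as circles and sh#2 as squares, ordered by the sh#7 value; dotted lines mark 2-fold. In sh#7, ATOH8, SMAD7, FURIN and SMAD6 lie past the upper line and CREB3L3 past the lower, and no sh#2 point is past a line.

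The iron regulatory proteins differed little in message. ACO1 encodes iron regulatory protein 1, which is an aconitase while it holds an iron-sulphur cluster and binds RNA once the cluster is lost. It was at 22.5 FPKM in sh#7, 24.4 FPKM in sh#2 and 19.4 FPKM in control, or 116% of control in sh#7 (110 to 123) and 126% in sh#2 (119 to 133). The ACO1 difference of 0.20 in sh#7 was 0.026 after median-of-ratios and 0.095 after upper-quartile scaling. IREB2 encodes iron regulatory protein 2, which is held down by degradation when iron is plentiful. It was at 18.6 FPKM in sh#7, 17.3 FPKM in sh#2 and 17.6 FPKM in control, and both of its intervals span no difference (99.4 to 112% of control in sh#7 and 92.6 to 104% in sh#2). The IREB2 difference of 0.074 in sh#7 was -0.10 after median-of-ratios and -0.036 after upper-quartile scaling. The ratio of IREB2 to ACO1 was 0.827 in sh#7 (0.781 to 0.876), 0.710 in sh#2 (0.671 to 0.751) and 0.909 in control (0.857 to 0.966). Both proteins are controlled after transcription, so these levels do not report their activity.

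In order of level, FTL and TF led in every library. Neighbours in that order whose ratio had an interval spanning 1 were SLC40A1 and IREB2 in sh#7 (ratio 1.06, 0.994 to 1.14), ACO1 and SLC40A1 in sh#2 (1.04, 0.981 to 1.11), and, in control, the run TFR2, ACO1, SLC40A1 and IREB2, with ratios of 1.03 to 1.05. All other neighbours differed by more than their counting intervals, which do not measure the spread between cultures. In 5 of the 10 genes (TF, TFRC, TFR2, HAMP and CP) the sh#2 level lay between those of sh#7 and control, beside 51.3% of all compared genes.

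Genes that hand iron on inside the cell were described next. Of 8 compared genes of ferritin loading, ferritin breakdown and turnover of the regulatory proteins, 0 passed 2-fold in either line, near the shares of all compared genes (for sh#7, 2.35% were higher and 2.48% lower, and for sh#2, 0.506% and 0.723%), with medians of 0.38 in sh#7 and 0.20 in sh#2. PCBP1, a chaperone that delivers iron to ferritin, was at 642 FPKM in sh#7, 483 FPKM in sh#2 and 419 FPKM in control, and its relative PCBP2 was at 306 FPKM in sh#7, 246 in sh#2 and 224 in control. NCOA4, the receptor that carries ferritin to the autophagosome for breakdown, was at 106 FPKM in sh#7, 111 in sh#2 and 131 in control. FTMT, mitochondrial ferritin, was listed at 0 in all 3 libraries.

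Of 20 genes of iron uptake, release and haem transport in the table, 11 were compared. In sh#7, 1 of them was past 2-fold higher and 1 lower, against 2.35% and 2.48% of all compared genes. After median-of-ratios scaling 3 were lower in sh#7, beside 381 of the 11069 compared genes. In sh#2, 0 were past 2-fold, against 0.506% higher and 0.723% lower, with medians of -0.039 (sh#7) and 0.045 (sh#2). STEAP3, a reductase that readies endosomal iron for transport, was the higher one, at 25.7 FPKM in sh#7, 14.5 FPKM in sh#2 and 10.7 FPKM in control. LCN2, which encodes lipocalin 2, a binder of bacterial iron carriers, was the lower one, at 7.17 FPKM in sh#7, 12.1 in sh#2 and 15.8 in control. SLC39A14, a transporter that takes up iron not bound to transferrin, was the most abundant, at 107 FPKM in sh#7, 134 in sh#2 and 193 in control, and its sh#7 difference of -0.85 was -1.04 under median-of-ratios scaling. LRP1, a receptor that clears haem bound to haemopexin, was at 29.8 FPKM in sh#7, 18.6 in sh#2 and 24.4 in control, and SLC11A2, the endosomal iron transporter DMT1, at 19.7 FPKM in sh#7, 26.3 in sh#2 and 25.4 in control. HEPH, the membrane-bound relative of ceruloplasmin, was listed at 0 in all 3 libraries.

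Iron is used mainly for haem and for iron-sulphur clusters. Of 16 compared genes of haem synthesis and breakdown, 0 passed 2-fold in either line, near the same shares of all compared genes (for sh#7, 2.35% were higher and 2.48% lower, and for sh#2, 0.506% and 0.723%), with medians of -0.043 in sh#7 and 0.083 in sh#2. The 3 highest were BLVRA, biliverdin reductase, at 74.1 FPKM in sh#7, 83.1 FPKM in sh#2 and 79.0 FPKM in control, UROD, an enzyme of haem synthesis, at 57.9 FPKM in sh#7, 72.6 in sh#2 and 62.1 in control, and the haem-binding protein gene PGRMC1 at 69.2 FPKM in sh#7, 60.2 in sh#2 and 54.1 in control. Of 28 genes of mitochondrial iron and iron-sulphur clusters, FDXR alone was past 2-fold, higher in sh#7, close to the 2.35% of all compared genes, with list medians of 0.069 (sh#7) and 0.22 (sh#2). FDXR, which passes electrons to mitochondrial ferredoxins, was at 95.1 FPKM in sh#7, 80.8 in sh#2 and 46.5 in control, and its sh#7 difference of 1.02 was 0.83 after median-of-ratios and 0.90 after upper-quartile scaling. The most abundant of that list were HSPA9, a chaperone, at 233 FPKM in sh#7, 238 in sh#2 and 215 in control, the glutaredoxin gene GLRX5 at 186 FPKM in sh#7, 204 in sh#2 and 227 in control, and FAM96B at 187 FPKM in sh#7, 156 in sh#2 and 168 in control. Of 5 compared genes whose transcripts carry other described iron-responsive elements, 0 passed 2-fold in either line, which at those shares of all genes says nothing particular about them, with medians of 0.13 (sh#7) and 0.035 (sh#2), among them EPAS1 at 73.0 FPKM in sh#7, 61.0 in sh#2 and 54.7 in control.

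Plasma scavengers of haemoglobin and haem were 3 further hepatocyte products, with median differences of -0.61 (sh#7) and 0.17 (sh#2). In sh#7, 1 of the 3 was past 2-fold lower, against 2.48% of all compared genes, and in sh#2 1 was higher, against 0.506%. HP, haptoglobin, was at 34.2 FPKM in sh#7, 114 FPKM in sh#2 and 101 FPKM in control, with differences of -1.54 in sh#7, past 2-fold lower, and 0.17 in sh#2. HPX, haemopexin, was at 3.98 FPKM in sh#7, 13.8 in sh#2 and 5.72 in control, past 2-fold higher in sh#2 and 69.5% of control in sh#7 (58.6 to 82.6). AMBP, whose product alpha-1-microglobulin binds haem, was at 810 FPKM in sh#7, 1054 in sh#2 and 1234 in control. HP is copied in part by the related gene HPR, so its reads may be shared.

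**Figure D5:**
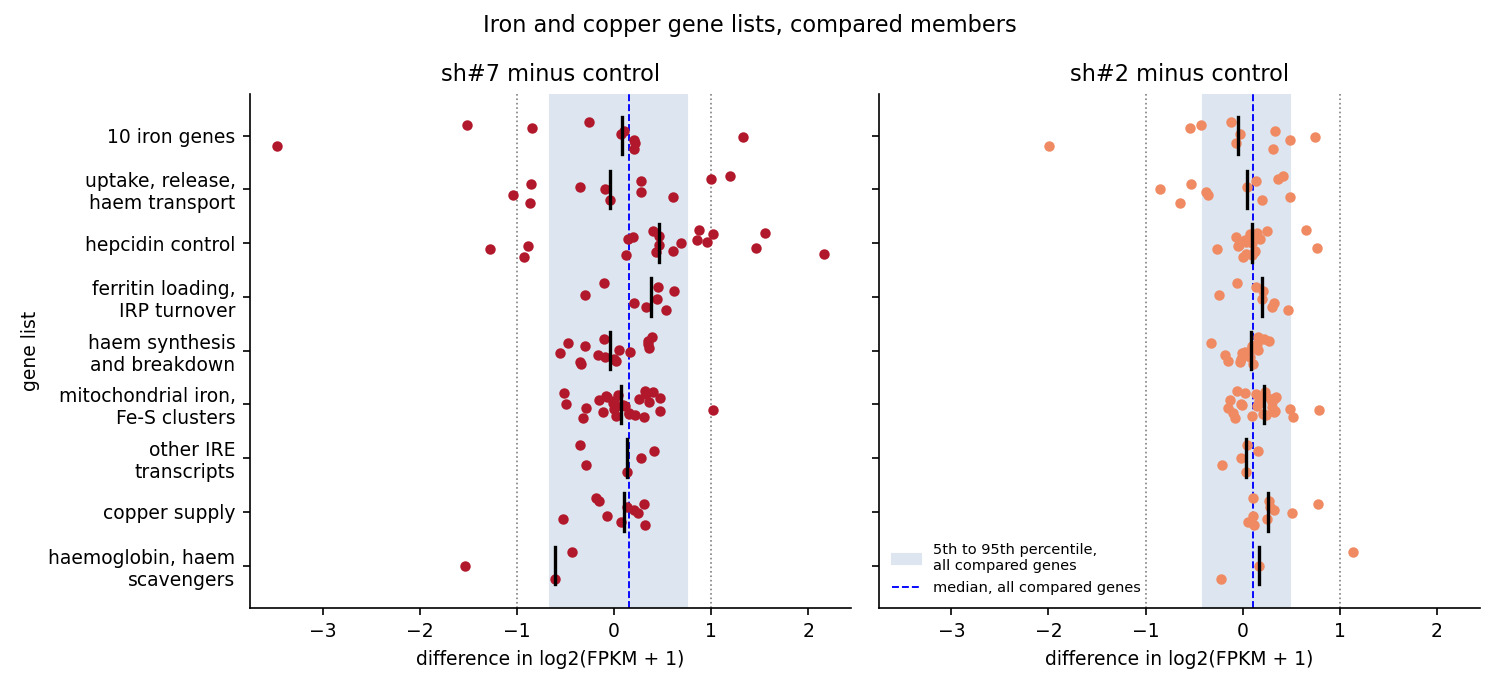
Difference in log2(FPKM + 1) from control of the compared members of each gene list, for sh#7 (left) and sh#2 (right), with 1 point per gene and a black bar at the list median. The band spans the 5th to 95th percentile of all compared genes, -0.66 to 0.75 in sh#7 and -0.41 to 0.49 in sh#2, and dotted lines mark 2-fold.

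To set the members with a large difference beside the rest of the table, the 3 genes with the most similar pair of differences from control were taken, by Euclidean distance over the 2 values among 8163 other genes averaging 5 FPKM or more. For CP these were C10orf10 (distance 0.30), PLA2G2A (0.34) and APOM (0.48). PLA2G2A was at 56.9 FPKM in sh#7, 117 FPKM in sh#2 and 517 FPKM in control. For HAMP they included DGAT2 and MBNL3, both at a distance of 0.07, with MBNL3 at 52.4 FPKM in sh#7, 32.9 FPKM in sh#2 and 19.3 FPKM in control. For TFR2 they were PFKFB4 (0.08), TMEM121 (0.09) and SOAT2 (0.11), with PFKFB4 at 7.00 FPKM in sh#7, 15.1 in sh#2 and 22.0 in control.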

How the data were processed

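RNA of 3 Hep-G2 libraries, 1 per group, was sequenced by the authors, who deposited 1 table of FPKM values with 1 row per gene symbol. The tools STAR 2.4.0j, Cufflinks 2.2.1 and HTSeq and the build hg19 are named, per the submitters' processing notes; the step each served and the annotation are not given in the sources used here. Values in FPKM, as deposited, were used as they stand. No count model suits FPKM, and with 1 library per group no test could be made. Genes averaging 1 FPKM or more were compared on the log2(FPKM + 1) scale, which understates changes of low genes. Depth came from low values: FPKM times length of genes with a single GENCODE 29 transcript over 800 bases gathers at the worth of 1 fragment (74 to 98 genes per library). Fragment numbers of genes used coding lengths from that release, a newer annotation than the authors' build, and are approximate and on the low side. Sequences came from GENCODE 29 transcripts (GRCh38), for the 7 of 10 members with an entry in the RefSeq promoter table (GRCh38.p14). A few items that the naming rule or the sequence search gave are not reported here.

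The members and the gene lists were chosen with earlier results of these data known, and so support nothing by their direction. The text names the 10 genes and FTO, list members past 2-fold in either line, the 3 most abundant members of each list, and the 3 nearest genes of each member past 2-fold. Alternatives were a pseudocount of 0.1, a minimum mean of 5 FPKM, no filter, median-of-ratios and upper-quartile scaling, and 1.5-fold. Calculations were tested on simulated data and run in Python 3.11.15 with pandas 2.3.3 and scipy 1.17.1.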

Additional observations from a re-analysis of the deposited data

Results flagged for a closer look

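In 5 named genes the lines lay on opposite sides of control, each by more than its counting interval; these differences between the lines were not tested. On the log2 scale, sh#7 and sh#2 gave 0.22 and -0.07 for FTH1. They gave 0.28 and -0.37 for LRP1, -0.10 and 0.22 for UROD, -1.54 and 0.17 for HP, and -0.43 and 1.14 for HPX.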

How the results depend on the processing

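No paired analysis was possible because a block or a left-out replicate needs more than the 1 library each line has. CP, TFR2 and HAMP stayed past 2-fold in sh#7, and CP in sh#2, under every pseudocount, filter and scaling run. These runs could hardly have ended otherwise. The genes average more than 5 FPKM, so the filters could neither remove them nor change their values. The scalings shift values little: HAMP in sh#7, the nearest to 2-fold, went from 1.33 to 1.14 under median-of-ratios scaling. Among all compared genes, a pseudocount of 0.1 put 394 past 2-fold higher in sh#7 than in control, 106 higher and 138 lower in sh#2, and 252 higher in sh#7 than in sh#2. A minimum mean of 5 FPKM, which leaves fewer genes, gave 146, 24, 49 and 82 for these. A threshold of 1.5-fold gave 1064 higher with 684 lower for sh#7, 295 with 301 for sh#2, and 569 with 504 between the lines, and 1 of the 10 iron genes, HAMP, was then higher in sh#2. The median of the 10 genes moved to -0.092 in sh#7 and -0.16 in sh#2 under median-of-ratios scaling and to -0.023 and -0.15 under upper-quartile scaling, which follows from the shift of all genes. Otherwise, 71 of 90 summary values stayed within 1.5 times or within counting error. These include counts and medians of the 10 iron genes under the filters, which could not move because all 10 average more than 5 FPKM. They also include the ferritin ratio with the listed pseudogene rows added, but those rows were below 1 FPKM and could hardly move it. Reads of unlisted pseudogenes were not examined. Of 378 values of named genes, 155 moved by more than their counting interval or had no interval, and 0 of those past 2-fold changed sign. No setting run shifts values enough to turn a difference of that size, so the sign result was bound to follow. Of 408 list values, 130 moved. Among list members past 2-fold in either line, depth limits ATOH8 most, with about 5 estimated fragments in control.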
